A study of Mus musculus with 4 samples.

Results

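Mast cells, basophils and eosinophils are granulated cells of allergic and antiparasite immunity, and 10 of the genes that mark them were followed in Thy1+ LSK cells of mouse bone marrow. The genes were listed by name: Cpa3, Clnk, Ms4a2, Fcer1a, Hdc, Prg2, Mcpt8, Prss34, Epx and Il5ra. They are 10 of the 22180 genes that the array platform's annotation pairs with a row of a single symbol. Where a gene has several rows, the row was to be chosen by its mean signal over the 4 arrays, but each of these had a single row, so that step chose nothing. Of the 10 genes, 7 lay over the limit for dim genes, a mean log2 signal of 4.835 that is the 25th percentile of the gene rows. The other three, Fcer1a, Hdc and Il5ra, lay under it and took no part in the test. The genes were chosen with earlier results of the same comparison known, so their differences are given as descriptions.

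Thy1+ LSK cells are lineage-negative marrow cells that carry Sca-1, Kit and Thy1, a fraction enriched for haematopoietic stem cells. Whole-transcript arrays, named by the labels as biotin-labelled cRNA after isothermal amplification of total RNA, were run on 2 Nol3-/- MPN samples and 2 Nol3+/+ samples. MPN is taken as myeloproliferative neoplasm. All samples were untreated, uncultured cells of the C57BL/6 background, from mice 11 to 18 months of age. The labels attach MPN to Nol3-/- only, and genotype and disease label therefore cannot be told apart. Sex, the number of animals behind an array, and how the Nol3 deletion was made are not stated in the labels. The p-values measure the spread between these arrays, which may be technical.

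Haematopoietic progenitors that take the mast cell, basophil or eosinophil path use GATA factors, interleukin 3 and related cytokines, and in mast cells also Kit. Mast cells and basophils carry the high-affinity IgE receptor, made of an alpha chain that binds IgE and of beta and gamma chains that signal. Their granules hold proteases and histamine, whereas eosinophil granules hold a cytotoxic basic protein and a peroxidase. In mouse marrow several of these genes are already transcribed in immature progenitors, before granules form.

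The 250 bases before the RefSeq gene start (GRCm38.p6) were available for 9 of the 10 genes, Prg2 being the one without. A set of 4 is shown, each 5′ to 3′ on the gene's own strand. Clnk is shown because it separated the groups most widely, Cpa3 and Mcpt8 because they varied together between the Nol3+/+ arrays, and Ms4a2 because it held the most GATA words. Capitals mark the letters GATA with A or T before them and A or G after them, read on either strand, the core word bound by GATA factors, and TTCNNNGAA, read on either strand, the core word bound by STAT5. No GATA word overlapped a STAT5 word in these windows. The windows are chr5:38876694-38876943 on the minus strand for Clnk, chr3:20242182-20242431 on the minus strand for Cpa3, chr14:56085198-56085447 on the minus strand for Mcpt8 and chr19:11623720-11623969 on the minus strand for Ms4a2.
Clnk: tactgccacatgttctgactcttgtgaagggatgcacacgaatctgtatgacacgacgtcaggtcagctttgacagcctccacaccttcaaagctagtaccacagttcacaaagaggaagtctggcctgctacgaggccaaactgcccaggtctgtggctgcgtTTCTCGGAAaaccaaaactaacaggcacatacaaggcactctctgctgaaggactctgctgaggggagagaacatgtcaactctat
Cpa3: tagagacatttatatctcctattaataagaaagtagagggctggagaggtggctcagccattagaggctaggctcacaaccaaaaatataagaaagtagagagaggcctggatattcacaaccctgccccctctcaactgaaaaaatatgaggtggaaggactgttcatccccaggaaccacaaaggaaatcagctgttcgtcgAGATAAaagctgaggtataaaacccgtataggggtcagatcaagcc
Mcpt8: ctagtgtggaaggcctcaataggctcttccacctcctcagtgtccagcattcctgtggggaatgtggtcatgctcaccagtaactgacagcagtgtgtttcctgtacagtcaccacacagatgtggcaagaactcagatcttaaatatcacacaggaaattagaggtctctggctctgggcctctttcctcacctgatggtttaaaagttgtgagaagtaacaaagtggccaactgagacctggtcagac
Ms4a2: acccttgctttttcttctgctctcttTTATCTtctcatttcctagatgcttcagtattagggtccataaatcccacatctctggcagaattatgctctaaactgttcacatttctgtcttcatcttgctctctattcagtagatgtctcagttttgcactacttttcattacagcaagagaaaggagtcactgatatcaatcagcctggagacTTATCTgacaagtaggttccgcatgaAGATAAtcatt
Of the 9 windows, 6 held a GATA word, against 26.5% of 32851 windows of the same length in the RefSeq promoter table. In Cpa3 the word begins 46 bases before the start. Ms4a2 holds 3, which begin 224, 37 and 11 bases before it. Fcer1a, Prss34, Il5ra and Hdc hold a single word each, at 92, 31, 74 and 221 bases. Clnk, Mcpt8 and Epx hold none. The STAT5 word occurred in 1 of the 9 windows, that of Clnk, at 86 bases, against 7.02% of all windows. A match describes letters only.

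Before the results, the arrays themselves were compared. The array medians lay at 5.35 and 5.39 in Nol3-/- MPN and at 5.38 and 5.37 in Nol3+/+. Nol3+/+ replicate 1 stood apart, with r = 0.899 and 0.908 across tested genes against the Nol3-/- MPN arrays, whereas Nol3+/+ replicate 2 had r = 0.929 and 0.945. Within the groups r was 0.949 between the Nol3-/- MPN arrays and 0.911 between the Nol3+/+ arrays. Nol3+/+ replicate 2 was thus closer to both Nol3-/- MPN arrays than to the other Nol3+/+ array. Nol3 itself read 5.38 and 5.50 in the Nol3-/- MPN arrays and 5.31 and 5.52 in the Nol3+/+ arrays, and since the deleted part is not stated, this row does not check the genotype. Xist read 10.9 and 10.7 in Nol3-/- MPN against 5.43 and 5.28 in Nol3+/+, and the Y-linked Eif2s3y read 4.24 and 3.97 in Nol3-/- MPN against 6.53 and 7.17 in Nol3+/+. The Y-linked Kdm5d and Uty were also lower in both Nol3-/- MPN arrays. By these signals the Nol3-/- MPN arrays read as female and the Nol3+/+ arrays as male. Sex and genotype therefore cannot be told apart in any difference given here, on any chromosome. Of the sort markers, Kit averaged 7.88 ± 0.70 in Nol3-/- MPN and 8.09 ± 0.02 in Nol3+/+ (SD, n = 2 each), and Thy1 averaged 4.94 ± 0.42 in Nol3-/- MPN and 4.88 ± 0.19 in Nol3+/+, close to the limit for dim genes. Cd48, a surface marker of multipotent progenitors below the stem cell, was higher in both Nol3-/- MPN arrays. It read 8.99 and 8.01 against 6.42 and 7.76 in Nol3+/+ (log2 difference 1.41, SE 0.56, limma adjusted p = 0.841). Mecom, a stem cell transcription factor gene, differed by 0.31 (SE 0.22), with the nearest arrays of the groups 0.021 apart. Procr, a further gene of the sort and stem cell list, was lower in both Nol3-/- MPN arrays (log2 difference -0.267, SE 0.213). Its nearest arrays lay 0.238 apart. Cd34 and Slamf1 overlapped between the groups. Of the 8 tested genes of the sort and stem cell list, 5 were higher and 3 lower in Nol3-/- MPN, with a median of 0.03, and the part of a shift within the sorted population in the other differences was not tested. No row of a single symbol was listed for Ly6a, which encodes Sca-1.

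None of the genes passed the limma threshold over all genes, and Clnk showed the widest separation of the groups. At an adjusted p under 0.05, limma called 0 of the 7 genes tested and 1 reached an unadjusted p under 0.05, against 0.0240% of 16635 genes called and 5.80% at the unadjusted level. Without Nol3+/+ replicate 2 the differences of Cpa3 and Prg2 widened from 0.70 to 1.65 and from -0.82 to -1.43, and that of Clnk was 1.18. The groups did not overlap for 4 of the 7 tested genes, 2 higher and 2 lower in Nol3-/- MPN, against 35.5% of all tested genes. Of all 10 genes, 6 did not overlap, against 35.2% of the 22180 genes without the limit, and in 3 of those 6 the nearest arrays of the groups lay less than 0.1 log2 units apart. The median log2 difference of the 7 tested genes was 0.07, beside 0.01 over all genes tested, and that of all 10 was 0.04. The median of the 7 was -0.022 without Nol3+/+ replicate 1 and 0.52 without Nol3+/+ replicate 2. Of the 7 genes, 5 had higher and 2 lower means in Nol3-/- MPN. In RNA from a sorted population, fewer cells of a type and less RNA per cell cannot be told apart. Signals of different genes come from different probes and are not ranked against each other.

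**Figure D1:**
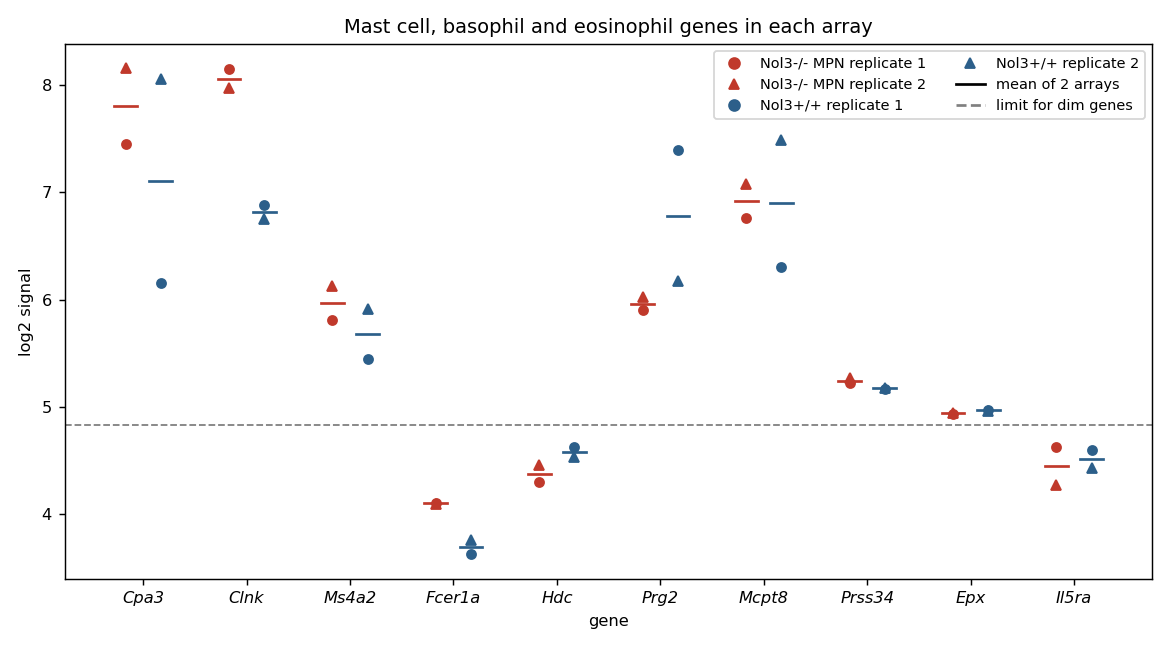
Log2 signal (vertical axis) of each of the 10 genes (horizontal axis) in the 2 Nol3-/- MPN arrays and the 2 Nol3+/+ arrays, with a short line at each group's mean and a dashed line at the limit for dim genes, 4.835. Clnk separates the groups by 1.09 log2 units, whereas Cpa3, Mcpt8 and Prg2 are spread mainly between the Nol3+/+ arrays.

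Among the genes of the IgE receptor and its signalling, Clnk was higher in both Nol3-/- MPN arrays, Ms4a2 overlapped between the groups and Fcer1a was dim. Clnk encodes an adaptor of immune receptor signalling, related to SLP-76, that was described in mast cells and other cytokine-stimulated blood cells. It read 8.15 and 7.97 in the Nol3-/- MPN arrays, against 6.88 and 6.75 in the Nol3+/+ arrays. Both Nol3-/- MPN arrays lay above both Nol3+/+ arrays, and the nearest of them were 1.09 log2 units apart, more than the gap of 0.18 between the Nol3-/- MPN arrays or of 0.13 between the Nol3+/+ arrays. On the log2 scale the groups differed by 1.25 (SE 0.22, 95% interval 0.69 to 1.80), a 2.37-fold higher signal in Nol3-/- MPN that limma did not call (adjusted p = 0.696, unadjusted p = 0.00205). A gap at least as wide was present for 0.271% of all tested genes in either direction, and for 0.126% with higher signal in Nol3-/- MPN. Clnk was also the 1 gene of the 7 at least 2-fold apart with an unadjusted p under 0.05, which held for 1.02% of all tested genes in either direction and for 0.631% in this direction. Without Nol3+/+ replicate 2 the differences of Cpa3 and Prg2 were 1.65 and -1.43, also more than 2-fold. Without any 1 array the difference of Clnk lay between 1.15 (without Nol3-/- MPN replicate 1) and 1.34 (without Nol3-/- MPN replicate 2). It was 1.31 without Nol3+/+ replicate 1.

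The relatives of Clnk showed other patterns. Lcp2, which encodes SLP-76 itself, read 7.56 and 7.89 in Nol3-/- MPN, against 7.11 and 8.67 in Nol3+/+. Its Nol3+/+ arrays lay on either side of both Nol3-/- MPN arrays (log2 difference -0.16, SE 0.54). Blnk, the B cell member of this adaptor family, lay under the limit for dim genes, at 4.16 and 4.50 in Nol3-/- MPN and at 4.33 and 4.20 in Nol3+/+.

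Ms4a2 encodes the beta chain of the IgE receptor. It read 5.81 and 6.12 in the Nol3-/- MPN arrays, against 5.45 and 5.92 in the Nol3+/+ arrays. The groups overlapped, and in each group replicate 2 was the higher array. The groups differed by 0.28 on the log2 scale (SE 0.22, limma adjusted p = 0.878), and by 0.05 without Nol3+/+ replicate 1 and by 0.52 without Nol3+/+ replicate 2. Fcer1a encodes the alpha chain, the one that binds IgE. It read 4.11 and 4.09 in Nol3-/- MPN, against 3.62 and 3.76 in Nol3+/+, all under the limit for dim genes. The groups were 0.33 log2 units apart, but signals this low cannot be separated from background, and the difference of 0.41 is one of deposited signals. Fcer1g, the gamma chain shared with other Fc receptors, read 5.84 and 6.04 in Nol3-/- MPN against 6.07 and 5.90 in Nol3+/+ and overlapped between the groups (log2 difference -0.04, SE 0.17). The alpha chain was thus the one of the 3 receptor chains that lay under the limit in all arrays.

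Of the granule protease genes, Cpa3 and Mcpt8 varied between the Nol3+/+ arrays and Prss34 did not. Cpa3 encodes carboxypeptidase A3, a mast cell granule protease also transcribed in basophils and in early progenitors. It read 7.45 and 8.16 in the Nol3-/- MPN arrays, against 6.15 and 8.06 in the Nol3+/+ arrays. Nol3+/+ replicate 1 was low, and the Nol3-/- MPN arrays were 0.71 log2 units apart. The gap of 1.91 log2 units between the Nol3+/+ arrays was matched or exceeded by 0.836% of tested genes, while the groups differed by 0.70 (SE 0.66, 95% interval -0.99 to 2.39, limma adjusted p = 0.909). The sign of that difference hung on single arrays: it was -0.25 without Nol3+/+ replicate 1 and 1.65 without Nol3+/+ replicate 2.

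Mcpt8 encodes a basophil granule protease. It read 6.76 and 7.08 in the Nol3-/- MPN arrays, against 6.30 and 7.49 in the Nol3+/+ arrays. As for Cpa3, Nol3+/+ replicate 1 was the lowest array, and here the Nol3+/+ arrays enclosed both others. The group difference of 0.02 log2 units (SE 0.43, 95% interval -1.07 to 1.11, limma adjusted p = 0.998) became -0.57 without Nol3+/+ replicate 1 and 0.61 without Nol3+/+ replicate 2, and -0.041 after quantile normalization. Prss34 encodes the basophil protease mMCP-11. It read 5.22 and 5.26 in Nol3-/- MPN, against 5.17 and 5.18 in Nol3+/+. The groups did not overlap, yet the arrays spanned 0.09 log2 units in all, a range as small as in 2.30% of tested genes (log2 difference 0.07, SE 0.12, limma adjusted p = 0.958). The 2 basophil proteases read differently: Mcpt8 varied by 1.19 between the Nol3+/+ arrays and Prss34 by 0.01. Prss34 lay under the array medians of 5.35 to 5.39, however, and was not kept with the 50th percentile as dim limit. At this level a steady transcript cannot be told apart from a signal near background.

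Mcpt8 lies on chromosome 14 with other mast cell protease genes and with Ctsg, the cathepsin G gene of neutrophil precursors. Of the mast cell chymase genes in that group, Cma1, Mcpt1, Mcpt2 and Mcpt9 lay under the limit for dim genes. Mcpt4 read 4.95 and 4.98 in the Nol3-/- MPN arrays, against 5.19 and 5.52 in the Nol3+/+ arrays (log2 difference -0.39, SE 0.16, limma adjusted p = 0.841). Ctsg read 8.64 and 8.76 in Nol3-/- MPN against 8.47 and 8.43 in Nol3+/+, with no gap between the arrays of a group like that of Mcpt8. These genes are related in sequence, and cross-hybridisation between them was not tested. The tryptase gene Tpsab1 lay over the limit, at 5.17 and 5.41 in Nol3-/- MPN and at 5.16 and 5.30 in Nol3+/+, and Tpsb2 lay under it.

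Hdc encodes histidine decarboxylase, the enzyme that makes histamine. It read 4.30 and 4.45 in the Nol3-/- MPN arrays, against 4.62 and 4.53 in the Nol3+/+ arrays. All values lay under the limit for dim genes, and the groups were 0.08 log2 units apart. Slc18a2, whose product loads histamine and other amines into granules, lay over the limit at 7.30 and 7.57 in Nol3-/- MPN, against 6.89 and 7.32 in Nol3+/+. Its groups overlapped, with a log2 difference of 0.33 and an SE of 0.26 (limma adjusted p = 0.879).

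The eosinophil genes gave a flat gene, a dim gene and an uneven one. Prg2 encodes the major basic protein of eosinophil granules. It read 5.90 and 6.02 in the Nol3-/- MPN arrays, against 7.39 and 6.17 in the Nol3+/+ arrays. A single array, Nol3+/+ replicate 1, was high, and Nol3+/+ replicate 2 lay 0.15 log2 units above the nearest Nol3-/- MPN array. The group difference of -0.82 log2 units (SE 0.42, 95% interval -1.88 to 0.24, limma adjusted p = 0.841) became -0.21 without Nol3+/+ replicate 1 and -1.43 without Nol3+/+ replicate 2. The paralogue Prg3 lay under the limit for dim genes, at 4.49 and 4.39 in Nol3-/- MPN and at 4.39 and 4.45 in Nol3+/+.

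Epx encodes eosinophil peroxidase. It read 4.94 and 4.95 in the Nol3-/- MPN arrays, against 4.98 and 4.96 in the Nol3+/+ arrays, and so lay just over the limit for dim genes. The whole range of 0.04 log2 units was as small as in 0.186% of tested genes (log2 difference -0.03, SE 0.12, limma adjusted p = 0.987). Il5ra, the receptor chain for the eosinophil growth factor interleukin 5, read 4.62 and 4.27 in Nol3-/- MPN against 4.60 and 4.43 in Nol3+/+, all under the limit and with overlapping groups. Epx did not show the high reading of Prg2 in Nol3+/+ replicate 1.

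**Figure D2:**
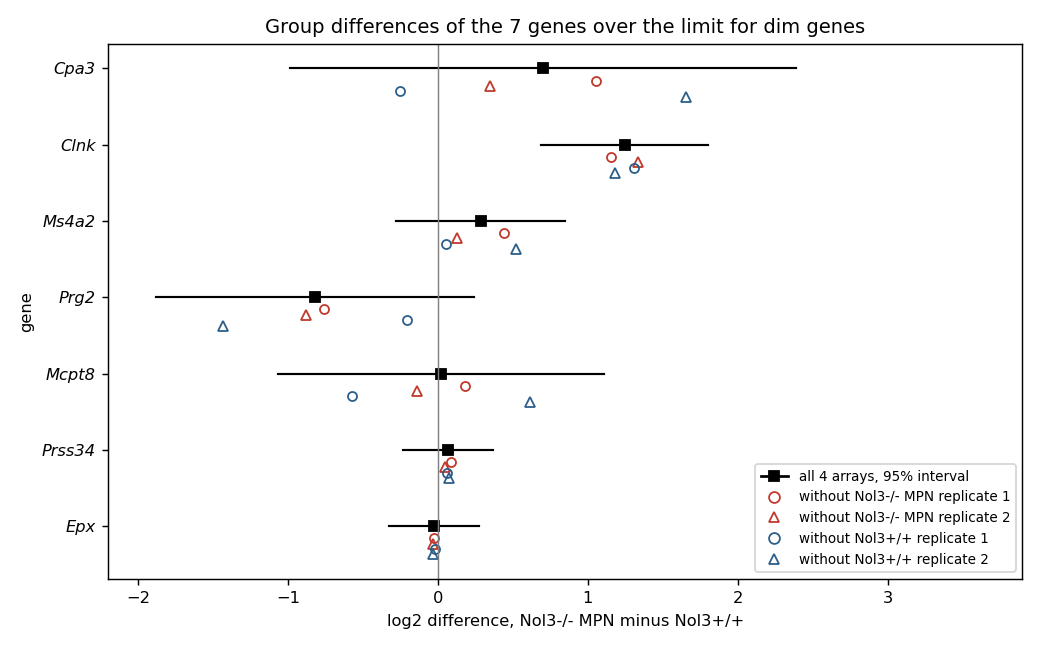
Log2 difference, Nol3-/- MPN minus Nol3+/+ (horizontal axis), of the 7 tested genes (vertical axis), as squares with 95% intervals from limma on all 4 arrays and open symbols for fits without 1 array. The interval of Clnk, from 0.69 to 1.80, is the one that leaves out 0, before any adjustment for the number of genes, and Cpa3 and Mcpt8 lie on both sides of 0 depending on the array left out.

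Among the 7 tested genes of the set, the uneven readings lay between the Nol3+/+ arrays. Of the 7 tested genes, 3 (Cpa3, Mcpt8 and Prg2) differed by at least 1 log2 unit between the Nol3+/+ arrays, against 4.09% of all tested genes, and 0 did so between the Nol3-/- MPN arrays, against 2.09%. Cpa3 and Mcpt8 were lower in Nol3+/+ replicate 1, by 1.91 and 1.19, and Prg2 was higher in it by 1.22. Some markers of other cells differed between the Nol3+/+ arrays too. Of 12 tested neutrophil and monocyte markers, 8 were lower in Nol3+/+ replicate 1 than in replicate 2, 3 of them by at least 1 log2 unit (Camp, Ngp and Ccr2), against 47.9% and 2.56% of all tested genes. The summed linear signal of that list was 1707 and 1820 in the Nol3-/- MPN arrays, against 1657 and 2271 in Nol3+/+ replicates 1 and 2. Its granule genes Mpo and Elane overlapped between the groups, at 8.08 and 8.58, and 5.64 and 5.99, in the Nol3-/- MPN arrays, against 7.58 and 8.13, and 5.83 and 5.64, in the Nol3+/+ arrays. Other members separated them without passing the limma threshold (adjusted p = 0.841 for each). The calprotectin genes S100a8 and S100a9 were lower in both Nol3-/- MPN arrays, by log2 differences of -0.86 and -0.83, and Prtn3, a granule protease gene, and Adgre1, a macrophage marker, were higher in both, by 0.50 and 0.37. None of the markers is at 0, since the deposited scale has no zero. In the other lists, Alox5ap, Ikzf1 and Flt3 were uneven between the Nol3-/- MPN arrays, which lay 1.63, 1.26 and 1.23 apart. In the erythroid, megakaryocyte, B cell, and T and NK cell lists, 0 tested markers differed by 1 log2 unit between the Nol3+/+ arrays. The sort and stem cell list held 1 such gene, Cd48, lower by 1.34 in Nol3+/+ replicate 1. Among the other lists, Lcp2 and Runx1 were lower in it by 1.56 and 1.24. By direction alone, 4 of 4 tested genes of the other mast cell list were lower in Nol3+/+ replicate 1 than in replicate 2. So were 4 of 5 T and NK cell, 3 of 4 B cell, 2 of 5 megakaryocyte and 1 of 4 erythroid markers. The lower direction was thus not particular to the neutrophil and monocyte list. Between the groups, the 2 markers with the smallest p in these lists were Pf4 at 0.59 and Itga2b at -0.19 (megakaryocyte), Rhd at -0.35 and Car1 at 0.15 (erythroid), Cd8a at 0.13 and Ncr1 at -0.19 (T and NK cell), and Cd79b at 0.50 and Cd79a at 0.19 (B cell), with limma adjusted p-values of 0.841 or more. The part of other cells in the readings of Cpa3, Mcpt8 and Prg2 was not tested.

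**Figure D3:**
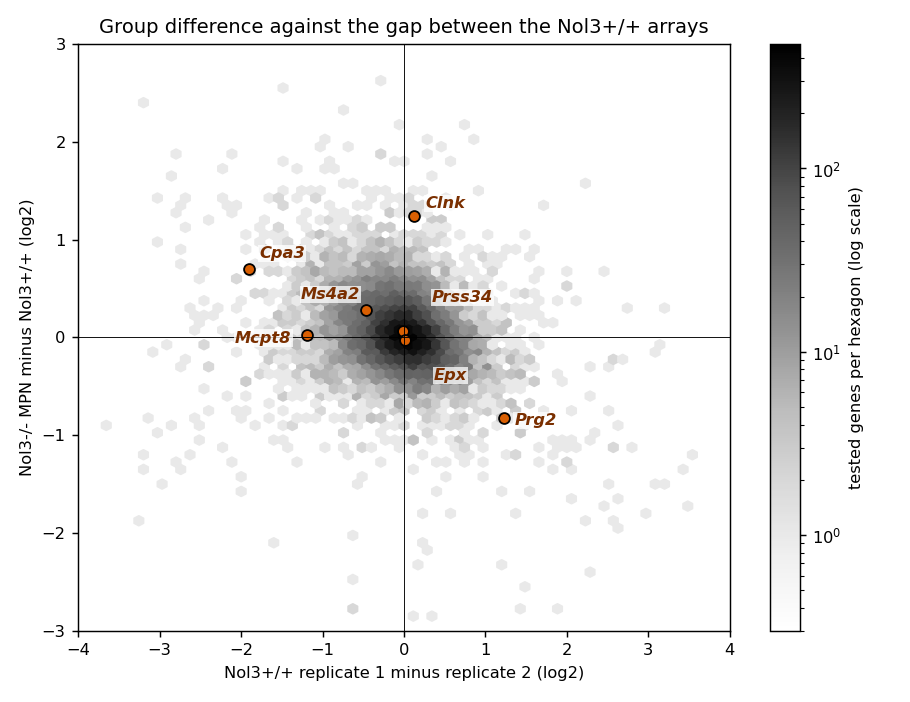
Difference between the groups (vertical axis, Nol3-/- MPN minus Nol3+/+, log2) against the gap between the Nol3+/+ arrays (horizontal axis, replicate 1 minus replicate 2, log2), with grey hexagons for the tested genes, of which 27 lie outside the plotted range, and orange points for the 7 tested genes named. The axes share the Nol3+/+ arrays. Clnk lies high at a gap of 0.13, whereas Cpa3, Mcpt8 and Prg2 lie at gaps of -1.91, -1.19 and 1.22.

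Further genes of the same lineages showed no called difference. Of 13 other mast cell genes, 9 lay under the limit for dim genes, and of the 4 tested 3 were higher and 1 lower in Nol3-/- MPN, with a median log2 difference of 0.06. Of 6 other basophil genes, 5 were tested, 1 higher and 4 lower, with a median of -0.03. Cd200r3, a basophil surface receptor, read 5.20 and 4.99 in Nol3-/- MPN against 5.45 and 4.83 in Nol3+/+, and the cytokine genes Il4 and Il13 differed by 0.04 and -0.06. Of 11 other eosinophil genes, 7 had a row and 3 were tested, Siglecf, Alox15 and Hrh4, at 0.09, -0.13 and 0.09. Ccr3, the eotaxin receptor, lay under the limit. Limma called 0 genes in each of these lists, and 0 reached an unadjusted p under 0.05.

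The receptor list was balanced and the IgE pathway list held more higher than lower genes, with none called. Of 7 tested growth factor and alarmin receptors, 4 were higher and 3 lower, with a median of 0.05. Il4ra, the interleukin 4 receptor chain, read 6.20 and 5.99 in Nol3-/- MPN, against 5.48 and 5.78 in Nol3+/+ (log2 difference 0.46, SE 0.18, limma adjusted p = 0.841). Csf2rb, the beta chain shared by the receptors for interleukin 3, interleukin 5 and GM-CSF, read 6.51 and 6.54 in Nol3-/- MPN against 5.82 and 6.36 in Nol3+/+ (log2 difference 0.43, SE 0.24). Il3ra, its partner for interleukin 3, differed by 0.11. Crlf2, a chain of the receptor for the alarmin TSLP, read 4.97 and 4.96 in Nol3-/- MPN against 5.18 and 5.24 in Nol3+/+ (log2 difference -0.24, SE 0.12, limma adjusted p = 0.841).

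Of 14 tested genes of IgE receptor signalling, 10 were higher and 4 lower, with a median of 0.09, against 51.7% of all tested genes higher. In 5 of the 14 both Nol3-/- MPN arrays lay above both Nol3+/+ arrays, against 19.7% of all tested genes, and in 0 they lay below, against 15.9%. Grap2 and Stim1, list genes under the limit for dim genes, were lower in both Nol3-/- MPN arrays, by -0.15 and -0.16. Their nearest arrays lay 0.067 and 0.007 apart. Btk, a Tec family kinase, read 7.61 and 7.47 in Nol3-/- MPN against 7.04 and 6.98 in Nol3+/+, and Btk is X-linked. Vav1, a signalling protein of blood cells, read 6.57 and 6.75 in Nol3-/- MPN against 6.29 and 6.01 in Nol3+/+. Their differences were 0.53 (SE 0.21) and 0.51 (SE 0.20), with a limma adjusted p of 0.841 for each. Inpp5d, which encodes the inhibitory phosphatase SHIP1, differed by 0.36 and the kinase gene Fyn by 0.35. Many of these genes act in lymphocytes and other myeloid cells too. In the B cell list 4 of 4 tested markers had higher means in Nol3-/- MPN. Cd79b read 6.33 and 6.38 in Nol3-/- MPN against 5.85 and 5.86 in Nol3+/+. Cd79a and Ebf1 differed by 0.185 and 0.173, with the nearest arrays of the groups 0.063 and 0.047 apart. Pax5 differed by 0.025 and overlapped between the groups. The summed linear signal of that list was 216 and 225 in Nol3-/- MPN against 187 and 185 in Nol3+/+, and the part of such cells was not tested. Limma called 0 genes in the receptor list and 0 in the IgE list, and 1 in each reached an unadjusted p under 0.05.

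The GATA factors of these lineages differed by less than 0.1 log2 units, and Irf8 was lower in both Nol3-/- MPN arrays. Gata2, needed by mast cell and basophil precursors, read 6.44 and 6.43 in Nol3-/- MPN against 6.37 and 6.39 in Nol3+/+, and Gata1, needed by eosinophils, read 5.19 and 5.30 in Nol3-/- MPN against 5.18 and 5.18 in Nol3+/+. Their log2 differences were 0.05 (SE 0.17) and 0.07 (SE 0.12). Mitf, a mast cell factor, differed by -0.08 and Cebpe, a factor of granulocyte maturation, by -0.20. Of 16 factors tested, 8 were higher and 8 lower, with a median of -0.02. Irf8, a factor of monocyte and dendritic cell development also active in basophil and mast cell precursors of mice, read 6.41 and 5.65 in Nol3-/- MPN against 7.996 and 7.73 in Nol3+/+ (log2 difference -1.83, SE 0.32, limma adjusted p = 0.696). Id2, an inhibitor of basic helix-loop-helix factors, differed by -0.58.

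Of 9 tested genes for making and storing mediators, 2 were higher and 7 lower, with a median of -0.13. Ltc4s, the leukotriene C4 synthase gene, read 4.84 and 4.75 in Nol3-/- MPN against 5.47 and 4.89 in Nol3+/+, and Ndst2, an enzyme of heparin synthesis, read 5.02 and 5.22 in Nol3-/- MPN against 4.89 and 4.76 in Nol3+/+. Srgn, the proteoglycan core of mast cell and other granules, read 9.15 and 9.18 in Nol3-/- MPN against 8.78 and 9.04 in Nol3+/+. Limma called 0 genes in the factor list and 0 in the mediator list, while 1 factor (Irf8) and 0 mediator genes reached an unadjusted p under 0.05.

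**Figure D4:**
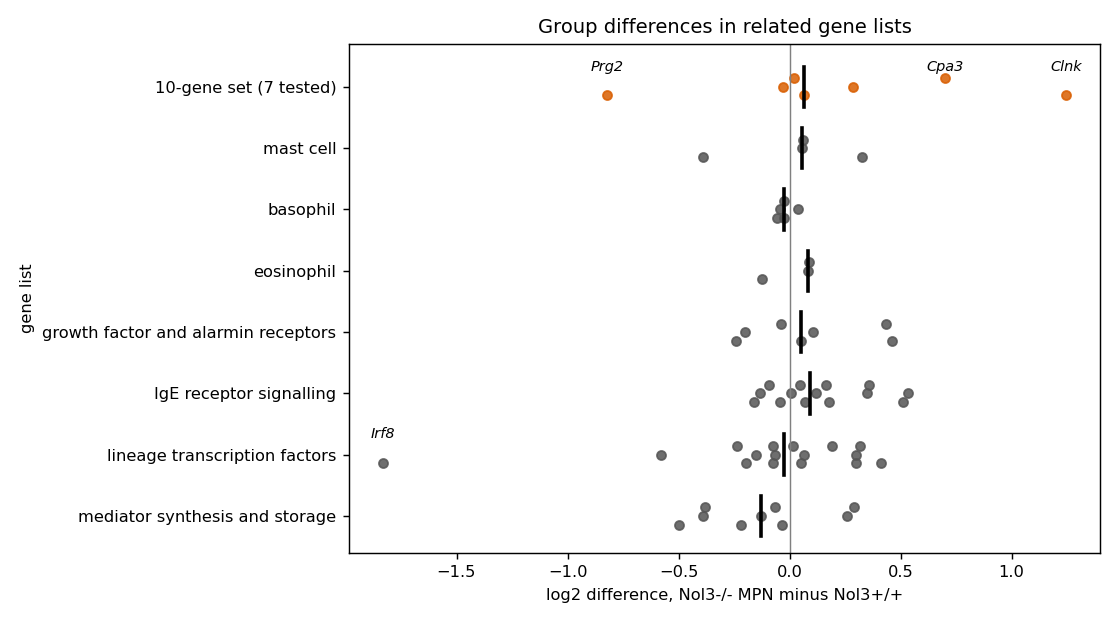
Log2 difference, Nol3-/- MPN minus Nol3+/+ (horizontal axis), of each tested gene in the 10-gene set and in 7 related lists (vertical axis), with a vertical line at each list's median. The medians lie between -0.13 and 0.09, and the genes beyond 0.6 in either direction are named.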

How the data were processed

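The authors deposited 1 table of 41345 rows and 4 arrays, treated as log2 signals per transcript cluster. The log2 scale was read from the deposited values (2.84 to 13.53), and its base is not stated. Per the submitters' processing notes the software was Affymetrix Expression Console with Transcriptome Analysis Console, and the background correction and normalization are not stated. Scanner intensities and detection p-values were not used here.

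Of the rows, 23521 had 1 gene symbol, 1814 several and 16010 none. The brightest row by mean stood for each of 22180 genes. Genes under the 25th percentile (5545) were left out as dim, which left 16635.

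Differences were fitted over all tested genes in limma 3.58.1 under R 4.3.3 (eBayes with variance trend, 2 residual and 3.19 prior degrees of freedom), adjusted by Benjamini-Hochberg over all tested genes at 0.05, and the function was tested on simulated data. SE is limma's, and SD is of 2 arrays. An exact permutation test cannot reach 0.05 with 2 arrays a group. The alternatives were the replicate block, each array left out, quantile normalization, other dim limits, no variance trend, row means, and X- and Y-linked genes left out. Same-numbered arrays deviated together with r = 0.049, and nothing in the labels pairs them.

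The genes, lists and tests were chosen with earlier results of these data known. Named genes were all 10, the 2 with the smallest p of each list, and genes set for their roles. Others (Runx1, S100a8, Adgre1, Camp, Ngp, Ccr2, Fyn, Inpp5d, Srgn, Siglecf, Mitf, Cebpe, Ctsg, Mcpt1, Mcpt2 and Mcpt9) were named after their values were seen. So were Alox5ap, Ikzf1, Flt3, Procr, Cd34, Slamf1, Ltf, Ebf1, Pax5, Grap2 and Stim1. Of the list genes, 13 had no row of a single symbol. Promoter sequences are RefSeq's (GRCm38.p6).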

Additional observations from a re-analysis of the deposited data

How the results depend on the processing

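The number of arrays limits the precision, signals near the limit for dim genes cannot be separated from background, and the depth of signal over background is unknown. Limma called no gene of the set under any of the 11 alternatives. In the fits of all 4 arrays with a dim limit, 1 gene of the set reached an unadjusted p under 0.05. Without a dim limit 2 of the 10 did, beside 1158 of all 22180 genes. Over all genes limma called 4, and 0 with the replicate number as a block (972 at an unadjusted p under 0.05), 0 with X- and Y-linked genes left out (898), and 0 to 39 without 1 array: 18 without Nol3+/+ replicate 1, 39 without Nol3+/+ replicate 2, and 0 without either Nol3-/- MPN array. The replicate block changed no other call. The median log2 difference of the tested genes of the set was between -0.022 and 0.52 without 1 array, and 0.28 with the 50th percentile as dim limit, which kept 5 genes of the set, against 0.07. Of 75 differences of single genes of the set under the alternatives, 71 kept their direction and 4 did not. Only leaving out an array and quantile normalization could move a single gene's difference. Under the other alternatives it was fixed, at 0.70 for Cpa3 and 1.25 for Clnk, so the direction kept there shows nothing. Cpa3 turned to -0.25 without Nol3+/+ replicate 1. Mcpt8 turned to -0.57 without Nol3+/+ replicate 1, -0.14 without Nol3-/- MPN replicate 2 and -0.041 after quantile normalization. Without Nol3+/+ replicate 2 the differences of Cpa3 and Mcpt8 were 1.65 and 0.61. Beyond the arrays left out, the cause was not tested. Clnk lay between 1.15 and 1.34 over the alternatives (limma adjusted p from 0.260 upwards).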
